A study of Mus musculus with 12 samples.

Results

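The colony-stimulating factors (CSFs) and their receptors were followed in bone marrow-derived macrophages (BMDMs), cultured macrophages that arise from marrow cells of the mouse. The group was chosen by gene symbol: the ligands *Csf1*, *Csf2* and *Csf3* and the receptor chains *Csf1r*, *Csf2ra*, *Csf2rb*, *Csf2rb2* and *Csf3r*, 8 of the 48526 genes in the deposited table of read counts. The cells came from 3 female C57Bl/6J mice, and each mouse gave an untreated culture and cultures that received Wnt3a (100 ng/mL), a Wnt pathway ligand, IL-4 (100 pg/mL) or the combination over 16 hr. This gave 4 groups of 3 samples from whole marrow on day 7 of culture. All groups, the untreated one included, had been grown in medium with 10 ng/mL mCSF, the protein that *Csf1* encodes, so every culture had an outside supply of this ligand. The study asked how Wnt3a changes the response of macrophages to IL-4, and the comparisons below ask how the mRNA of the CSF system stood in each condition.

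CSF1 binds the receptor tyrosine kinase CSF1R and is the main survival and growth signal of macrophages. GM-CSF (*Csf2*) binds a private alpha chain (*Csf2ra*) that pairs with the common beta chain (*Csf2rb*), which IL-3 and IL-5 receptors also use, and signals through JAK2 and STAT5. Mice carry a further beta chain, *Csf2rb2*, that serves IL-3 alone, and G-CSF (*Csf3*) acts through *Csf3r*, best known from neutrophils.

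The table's columns for Wnt3a and for Wnt3a+IL-4 could not be read as separate libraries. For all 48526 genes of the same mouse, the Wnt3a column was at least as large as the Wnt3a+IL-4 column and at most 2 times as large, with 0 genes outside these bounds, whereas columns of different mice broke them at 6681 to 8625 genes. The difference (Wnt3a column minus Wnt3a+IL-4 column) and the remainder (2 times the Wnt3a+IL-4 column minus the Wnt3a column) of each mouse were therefore compared with the untreated and IL-4 libraries. Both come from Wnt3a-treated cells, but the labels do not say which of them held Wnt3a alone, and no assignment was made from the values. Total counts ranged from 13342492 to 17453377 over these 12 libraries. Levels are given as CPM, the share of a library's counts scaled by the trimmed mean method (TMM). Summed CPM of 9 macrophage markers lay between 39138 and 63761, against 65.2 to 149 for 12 neutrophil, 11.7 to 37.3 for 10 stromal and 1.92 to 5.49 for 9 lymphocyte markers. Nothing says that a mouse gave more than 1 culture per condition, and in bulk RNA fewer cells with a transcript and less of it per cell cannot be told apart.

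The beta chain genes *Csf2rb* and *Csf2rb2* are near-copies of each other on mouse chromosome 15, and the sequences below show what separates their reads. *Csf2rb* lies at chr15:78325752-78353847 on the plus strand and *Csf2rb2* at chr15:78282507-78305721 on the minus strand (mm10). Their coding sequences, of 2688 and 2634 bases, were identical at 95.2% of aligned bases, and their longest identical run was 242 bases, in exon 14 of both. Of all 50-base stretches in the *Csf2rb* transcripts, 12.3% also occurred in *Csf2rb2*, and 18.4% of those of *Csf2rb2* occurred in *Csf2rb*. A read inside such a stretch cannot be placed by its sequence alone. How the authors' counting treated such reads is not given in the sources used here. The least alike coding window of 100 bases fell in exon 4 of both, at chr15:78338887-78338986 (plus strand) and chr15:78294345-78294444 (minus strand), where capitals mark the 16 bases that differ.
Csf2rb: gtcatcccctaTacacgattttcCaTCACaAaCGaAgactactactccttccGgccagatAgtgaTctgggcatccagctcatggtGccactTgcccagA
Csf2rb2: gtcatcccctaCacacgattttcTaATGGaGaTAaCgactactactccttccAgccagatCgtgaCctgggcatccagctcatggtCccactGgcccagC

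Of the ligands, *Csf1* was the gene that carried the response. It was counted at a low level in untreated cells, with 65, 84 and 78 reads in mice 1, 2 and 3 (3.49, 5.4 and 4.89 CPM). IL-4 alone left 92, 81 and 60 reads (5.51, 5.17 and 4.33 CPM), within the untreated range or close to it. In the difference it reached 391, 340 and 231 reads (22.4, 20.7 and 16.8 CPM). The remainder held the highest levels, with 673, 515 and 532 reads (41.8, 31.6 and 34.9 CPM). All 6 Wnt3a-treated libraries stood above all 6 others, and the remainder stood above the difference in each mouse. *Csf1* was 4.38-fold higher in the difference than in untreated cells (log2 fold change 2.13 ± 0.18 SE, 95% interval 1.75 to 2.51, edgeR quasi-likelihood test, adjusted p = 8.8e-07). In the remainder it was 7.9-fold higher (log2 2.98 ± 0.17, interval 2.61 to 3.36, adjusted p = 2.9e-08). The change with IL-4 alone was 0.14 ± 0.19 on the log2 scale (interval -0.27 to 0.55, adjusted p = 0.83).

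The remainder exceeded the difference for *Csf1* by 0.85 ± 0.15 on the log2 scale (1.8-fold, adjusted p = 0.0046), higher in 3 of 3 mice. Without mouse 3 this was 0.77 (adjusted p = 0.19). Between the deposited columns, which share reads, it was 0.14 (adjusted p = 1). Averaged over both Wnt3a-treated libraries of each mouse, *Csf1* was 5.61-fold higher than in the untreated and IL-4 libraries (log2 2.49 ± 0.12, adjusted p = 2.5e-09), a comparison that does not depend on which solved library is which. With the deposited columns the same comparison gave 2.47 (adjusted p = 1.0e-09). These columns hold the reads of the same solved libraries, some of them in both columns, so this is not a separate check.

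*Csf2* and *Csf3* were not detected beyond a stray read. *Csf2* (chr11:54247271-54249667, minus strand) had 0 counts in all 12 libraries, and *Csf3* (chr11:98701263-98703629, plus strand) had 1 count, in the remainder of mouse 3. A count of 0 allows up to 3 counts per library, which is 0.161 to 0.218 CPM here, and this limit covers counting error only. A difference between conditions in GM-CSF or G-CSF mRNA was not detectable at this depth. Of the related ligands, *Il34*, the other ligand of CSF1R, had 1 count in each of 2 libraries (IL-4 mouse 3 and the remainder of mouse 2), while *Il3* and *Il5* had 0 in all. Every ligand in this family other than *Csf1* was thus at or near 0 in every condition.

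*Csf1* lies at chr3:107741048-107760469 on the minus strand, and 0% of its 50-base stretches were shared with another gene. Its upstream window is shown because it was the ligand that moved. The 250 bases before its start (chr3:107760470-107760719, minus strand, RefSeq on GRCm38.p6) were searched on both strands for the letters of 7 motifs, and capitals mark the matches. They hold GGAAAGTCCC, the other strand of the NF-kB-like letters GGGA, any base and TTTCC, from 154 to 145 bases before the start, which 0.356% of 32851 such windows hold. They also hold the TCF-like letters CTTTGA from 21 to 16 bases before the start, which 13.8% of windows hold. A match is a description of the letters and not of binding.
Csf1 upstream: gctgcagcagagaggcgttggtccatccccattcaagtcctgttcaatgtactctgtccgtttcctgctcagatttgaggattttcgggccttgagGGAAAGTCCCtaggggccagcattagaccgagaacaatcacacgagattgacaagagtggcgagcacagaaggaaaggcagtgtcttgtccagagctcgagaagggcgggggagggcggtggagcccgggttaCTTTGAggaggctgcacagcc

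**Figure D1:**
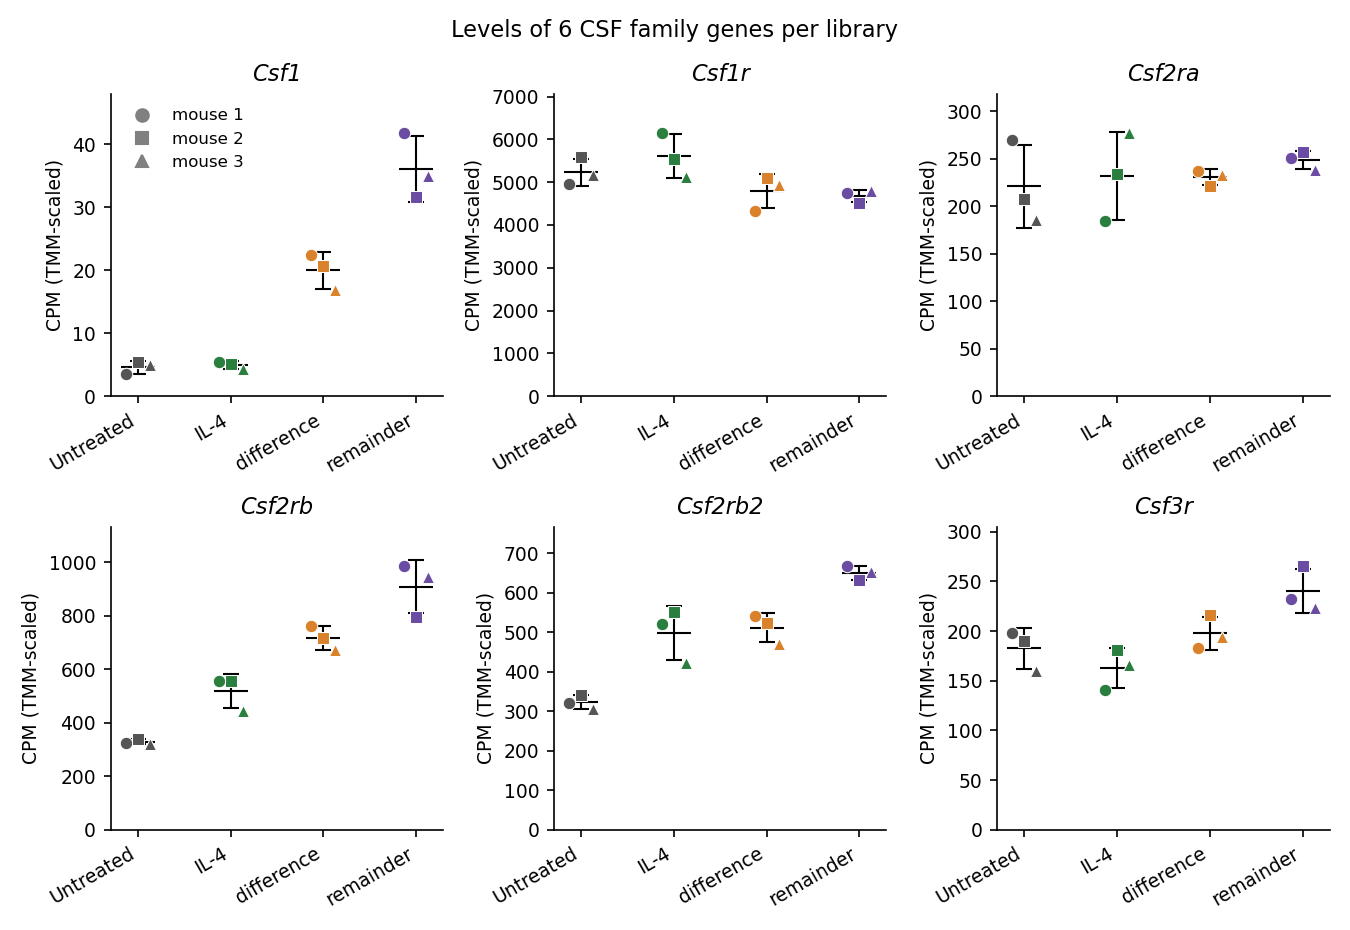
TMM-scaled CPM of the 6 detected CSF genes in each library, with the mouse shown by the shape of the point. Horizontal bars are means of 3 libraries and error bars are SD, and each vertical axis starts at 0. *Csf1* sits between 3.49 and 5.51 CPM in the untreated and IL-4 libraries and between 16.8 and 41.8 CPM in the Wnt3a-treated ones, *Csf2rb* climbs from 329 to 909 CPM between the untreated and remainder means, and *Csf2ra* overlaps between untreated, IL-4 and the Wnt3a-treated libraries.

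The receptor chains were all present. Per kilobase of exon, *Csf1r* led in untreated cells at 857 to 966 CPM per kb, rank 30 of 12398 tested genes with a length. *Csf2ra* followed at 64.6 to 93.9 (rank 481) and *Csf2rb2* at 64.5 to 71.9 (rank 545), and their ranges overlapped. *Csf3r* at 44.2 to 54.9 (rank 802) and *Csf2rb* at 44.1 to 46.7 (rank 907) also overlapped. *Csf1* lay far below them at 0.661 to 1.02 CPM per kb (rank 9966). In the remainder the order was *Csf1r* (781 to 828), *Csf2rb2* (133 to 140.5), *Csf2rb* (109 to 135), *Csf2ra* (82.9 to 89.5), *Csf3r* (61.7 to 73.4) and *Csf1* (5.99 to 7.91), where the neighbours with overlapping ranges were *Csf2rb2* and *Csf2rb*. *Csf2rb* was thus below *Csf2ra* in untreated cells and above it in the remainder.

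*Csf1r*, the receptor for the CSF1 supplied in the medium, changed little. Untreated libraries held 4950, 5580 and 5157 CPM in mice 1 to 3, and IL-4 libraries 6148, 5536 and 5128. The difference held 4330, 5094 and 4943 CPM, and the remainder 4742, 4509 and 4782. The remainder libraries were all below the untreated ones, by a small margin, and the difference overlapped them. None of the 3 comparisons with untreated cells passed the test, with log2 fold changes of 0.10 (IL-4, interval -0.11 to 0.31), -0.13 (difference, -0.33 to 0.08) and -0.16 (remainder, -0.37 to 0.04) and adjusted p of 0.72, 0.38 and 0.24. Averaged over both Wnt3a-treated libraries, *Csf1r* was lower by 1.14-fold (log2 -0.19 ± 0.07, adjusted p = 0.041), in 3 of 3 mice. That call was at the edge: it was lost in 15 of 25 alternatives, among them the mouse as a block (-0.19, adjusted p = 0.074), leaving out any of the 3 mice and leaving out any of 8 single libraries, and its adjusted p over all of them ran from 0.001 to 0.19. With total counts as the only scaling, *Csf1r* passed as lower in both the difference (-0.21, adjusted p = 0.037) and the remainder (-0.27, adjusted p = 0.012). Of the exon bases of *Csf1r* (chr18:61100598-61132149, plus strand), 15.1% overlap *Hmgxb3* on the other strand, and the strand setting of the counting is not given in the sources used here.

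The common beta chain *Csf2rb* was the receptor chain with the largest change. It stood at 326, 339.7 and 321 CPM in untreated cells, and at 555, 556 and 445 CPM with IL-4. The difference held 763, 719 and 671 CPM and the remainder 985, 796 and 947. The 4 groups did not overlap, in the order untreated, IL-4, difference, remainder. *Csf2rb* rose 1.58-fold with IL-4 (log2 0.66 ± 0.10, adjusted p = 0.0019), 2.18-fold in the difference (1.13 ± 0.10, adjusted p = 2.6e-06) and 2.76-fold in the remainder (1.47 ± 0.10, adjusted p = 1.8e-07). Without mouse 3 the IL-4 change was 0.73 (adjusted p = 0.052). The remainder lay above the difference in 3 of 3 mice, by 0.34 on the log2 scale (interval 0.12 to 0.56), which did not pass the test over all genes (adjusted p = 0.074). It passed under DESeq2 (adjusted p = 0.031), without mouse 2 (0.44, adjusted p = 0.036) and without the remainder of mouse 2 alone (0.44, adjusted p = 0.012).

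The IL-3-specific beta chain *Csf2rb2* rose with IL-4 by nearly as much as *Csf2rb*, and by less in the Wnt3a-treated libraries. Its levels were 321, 341 and 306 CPM in untreated cells and 520.5, 550.2 and 421 CPM with IL-4. The difference held 539.8, 524 and 469 CPM, inside the IL-4 range, and the remainder held 666, 631 and 651, above all others. The rises were 1.54-fold with IL-4 (log2 0.62 ± 0.10, adjusted p = 0.0018), 1.59-fold in the difference (0.66 ± 0.10, adjusted p = 1.9e-04) and 2.01-fold in the remainder (1.01 ± 0.10, adjusted p = 3.6e-06). The remainder against the difference gave 0.34 (interval 0.14 to 0.55, adjusted p = 0.056), and 0.35 with adjusted p = 0.044 when the mouse was a block. It also passed under DESeq2 (adjusted p = 0.017), without the remainder of mouse 2 (0.37, adjusted p = 0.038), without untreated mouse 2 (0.35, adjusted p = 0.045) and without IL-4 mouse 2 (0.34, adjusted p = 0.048) or 3 (0.34, adjusted p = 0.025). With the reads of both beta chain genes summed into a single row, the changes were 0.64 (IL-4, adjusted p = 0.0019), 0.92 (difference, adjusted p = 1.4e-05) and 1.26 (remainder, adjusted p = 5.8e-07). Whether the call of either gene on its own depends on how shared reads were counted was not tested.

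The 2 beta chain genes moved apart in the Wnt3a-treated libraries. The ratio of *Csf2rb* to *Csf2rb2* counts was 1.02, 0.997 and 1.05 in untreated mice 1 to 3 and 1.07, 1.01 and 1.06 with IL-4. It was 1.41, 1.37 and 1.43 in the difference and 1.48, 1.26 and 1.45 in the remainder. All 6 Wnt3a-treated libraries lay above all 6 others, by 1.36-fold (two-sided exact permutation within mouse, p = 0.0093, the smallest that 216 arrangements can give, and 0.0093 adjusted over the 3 ratios examined). These ratios were chosen after the values had been seen. The permutation p therefore adds no support, and the ratio is given as a description.

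The upstream window of *Csf2rb2* is shown because this gene rose in every comparison with untreated cells. *Csf2rb* did so as well, but no upstream window was available for it. The *Csf2rb2* window lies at chr15:78305722-78305971 on the minus strand (RefSeq, GRCm38.p6), and of the 7 motifs searched it held the letters of 2, in capitals. It holds TTCTGAGAA, which has the STAT-like letters TTCNNNGAA, from 15 to 7 bases before the start, as do 7.02% of all windows. The PU.1-like letters GAGGAA are on the other strand from 167 to 162 bases before the start, and 23.3% of windows hold them. Windows of *Csf2*, *Csf2ra* and *Csf3r* were also searched and are not shown. They held C/EBP-like letters (*Csf2*), PU.1-like letters (*Csf2ra*) and PU.1-like and TCF-like letters (*Csf3r*), so matches were not limited to genes called as changed.
Csf2rb2 upstream: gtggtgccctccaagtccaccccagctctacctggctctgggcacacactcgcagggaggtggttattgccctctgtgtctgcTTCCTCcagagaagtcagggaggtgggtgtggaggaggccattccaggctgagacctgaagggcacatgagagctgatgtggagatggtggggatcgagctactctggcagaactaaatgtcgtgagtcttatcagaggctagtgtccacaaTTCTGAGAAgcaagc

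*Csf2ra*, the private chain of the GM-CSF receptor (chr19:61223957-61228429, minus strand), was called in none of the comparisons. It held 269.6, 208 and 185 CPM in untreated cells, 184, 234 and 277 CPM with IL-4, 237, 221 and 233 CPM in the difference and 251, 257 and 238 CPM in the remainder. Mouse 1 was the highest of the untreated libraries and the lowest of the IL-4 libraries, and all groups overlapped the untreated one. The log2 fold changes against untreated cells were 0.07 (interval -0.24 to 0.37), 0.06 (-0.24 to 0.36) and 0.17 (-0.13 to 0.47), with adjusted p of 0.89, 0.8 and 0.41. Without mouse 1, the remainder against untreated gave 0.33 (adjusted p = 0.042). Per kilobase, *Csf2ra* over *Csf2rb* was 2.1, 1.55 and 1.47 in untreated cells, 0.838, 1.07 and 1.58 with IL-4, 0.788, 0.779 and 0.881 in the difference and 0.646, 0.818 and 0.637 in the remainder. The ratio was lower in the Wnt3a-treated libraries by 1.82-fold on average, with *Csf2rb* called as changed and *Csf2ra* not, and is given as a description.

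The G-CSF receptor *Csf3r* (chr4:126024550-126044440, plus strand) was slightly higher in the remainder. It held 198, 189.8 and 159.6 CPM in untreated cells, 141, 181 and 166 CPM with IL-4, 183, 216 and 194 CPM in the difference and 232, 265 and 223 CPM in the remainder. The remainder lay above all other libraries, while IL-4 and the difference overlapped the untreated group. *Csf3r* was 1.31-fold higher in the remainder than in untreated cells (log2 0.39 ± 0.11, adjusted p = 0.017). This call was lost with total counts as the scaling (0.29, adjusted p = 0.098), with the deposited columns (0.24, adjusted p = 0.11), without mouse 3 (0.36, adjusted p = 0.18), without untreated mouse 3 (0.30, adjusted p = 0.093) and without the remainder of mouse 2 (0.32, adjusted p = 0.054). IL-4 gave -0.17 (adjusted p = 0.56) and the difference 0.12 (adjusted p = 0.5). Averaged over both Wnt3a-treated libraries, *Csf3r* was 1.26-fold higher (log2 0.34 ± 0.08, adjusted p = 0.0041), and without mouse 3 the same value had an adjusted p of 0.056. Of its 50-base stretches, 10.7% occur in another gene, most of them in *AC105061.2*. Of 8 tested neutrophil markers, 2 were higher and 5 lower over the Wnt3a-treated libraries, against 16.5% and 16.1% of all tested genes. All 12 listed summed to 65.2 to 89.3 CPM in untreated libraries and 101 to 109 CPM with IL-4. Their sums were 103 to 149 CPM in the difference and 74.4 to 98.2 CPM in the remainder. *Ly6g* was at 0 in the untreated libraries, and the part of neutrophils in the *Csf3r* result was not tested.

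*Il3ra*, the alpha chain through which IL-3 uses these beta chains, was higher in both solved libraries. Its levels were 62, 68.1 and 68.1 CPM in untreated cells and 74.9, 65 and 72.2 CPM with IL-4. The difference held 78.3, 96.5 and 102 CPM and the remainder 102, 81.4 and 85.9 CPM. Both stood above the untreated libraries without overlap, and they overlapped each other. The changes were 0.48 ± 0.11 (adjusted p = 0.0053) and 0.44 ± 0.11 (adjusted p = 0.0081) on the log2 scale. *Il5ra*, the alpha chain of the IL-5 receptor, had 0 counts in all libraries.

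**Figure D2:**
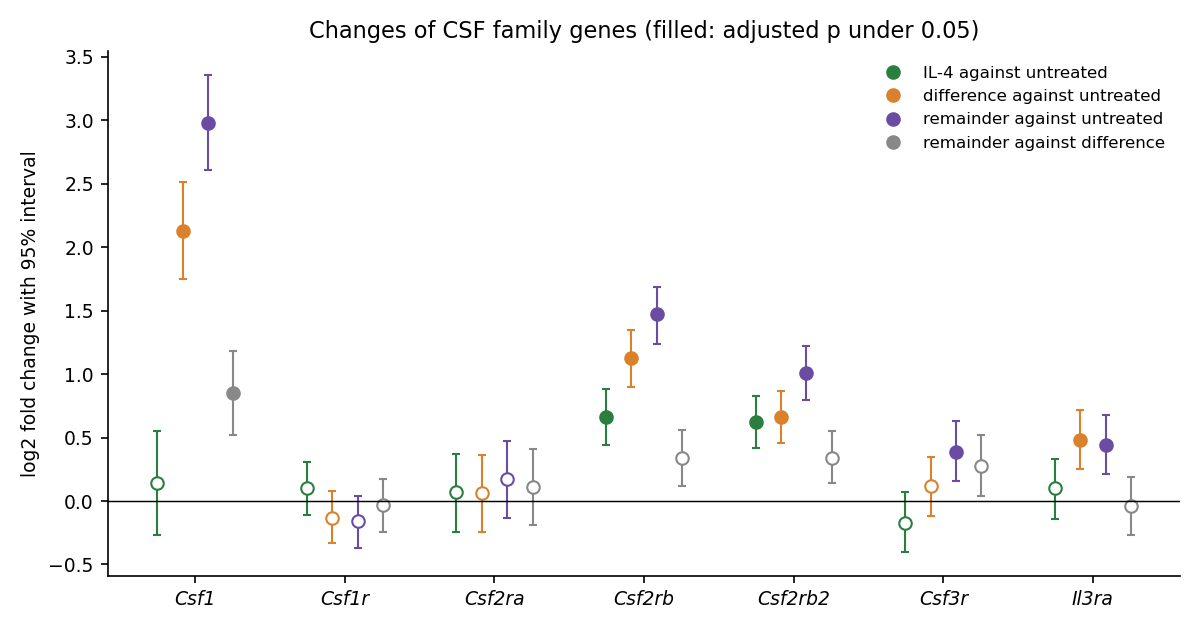
Log2 fold changes of the 6 tested CSF genes and *Il3ra* in 4 comparisons, with 95% intervals from the edgeR quasi-likelihood fit over 12 libraries, where filled points have an adjusted p under 0.05. *Csf1* reaches 2.13 and 2.98 in the difference and the remainder, *Csf2rb* and *Csf2rb2* are filled in all 3 comparisons with untreated cells, and *Csf1r* and *Csf2ra* lie within 0.2 of 0 throughout.

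Of the 8 genes, 6 passed the filter on low counts, and the counts of called genes are read against the share of all 12421 tested genes that passed. With IL-4, 2 of 6 were called, both higher, against 3.4% of all genes called in either direction and 2.31% called higher. These were the near-copies *Csf2rb* and *Csf2rb2*, which are not independent of each other, and with their rows summed 1 member was called. Both were also among the genes called in the difference, the remainder and the Wnt3a average. In the difference, 3 of 6 were called higher, against 23.2% of all genes called in either direction and 11.8% called higher. In the remainder, 4 of 6 were called higher, against 25.3% and 13.6%. These 2 comparisons share the same 3 untreated libraries. Between remainder and difference, 1 of 6 (*Csf1*) was called, as higher, against 5.25% and 2.87%. Averaged over both Wnt3a-treated libraries, 5 of 6 were called, 4 higher and 1 lower, against 32.6% of all genes, 16.5% higher and 16.1% lower. The median log2 change of the 6 genes was 0.12 with IL-4, 0.39 in the difference and 0.70 in the remainder, beside -0.00, -0.01 and -0.02 over all tested genes.

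Whether IL-4 acted differently with and without Wnt3a depends on which solved library is which, so both readings are given. If the difference was Wnt3a alone, 0 of 6 members were called for the interaction, against 0.105% of all genes (13 by edgeR, with 1576 at an unadjusted p under 0.05, and 165 by DESeq2), and *Csf1* had 0.72 ± 0.25 (interval 0.19 to 1.24, unadjusted p = 0.011, adjusted p = 0.26). In that reading *Csf2rb* had -0.32 (interval -0.63 to -0.01, adjusted p = 0.38), *Csf2rb2* -0.28 (-0.57 to 0.01, adjusted p = 0.42) and *Csf3r* 0.44 (0.11 to 0.78, adjusted p = 0.27). If the remainder was Wnt3a alone, 3 of 6 were called, all as lower, against 7.33% of all genes in either direction and 4.42% as lower. These were *Csf1* (-0.99 ± 0.25, adjusted p = 0.024), *Csf2rb* (-1.0 ± 0.15, adjusted p = 4.6e-04) and *Csf2rb2* (-0.97 ± 0.14, adjusted p = 3.7e-04). The beta chain genes are near-copies and not independent, and summed into 1 row they gave -0.98 ± 0.14 (adjusted p = 4.2e-04). The *Csf1* call was lost in 10 of 25 alternatives.

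The balance of receptor to ligand mRNA changed with the ligand. Per kilobase, *Csf1r* over *Csf1* was 1297, 945 and 965 in untreated cells and 1021, 979 and 1084 with IL-4. It was 177, 225 and 269 in the difference and 104, 130 and 125 in the remainder. The Wnt3a-treated libraries were lower by 6.43-fold on average, without overlap, which restates the change of *Csf1* and is given as a description. *Csf1r* transcripts still outnumbered *Csf1* transcripts by over 100-fold in every library.

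**Figure D3:**
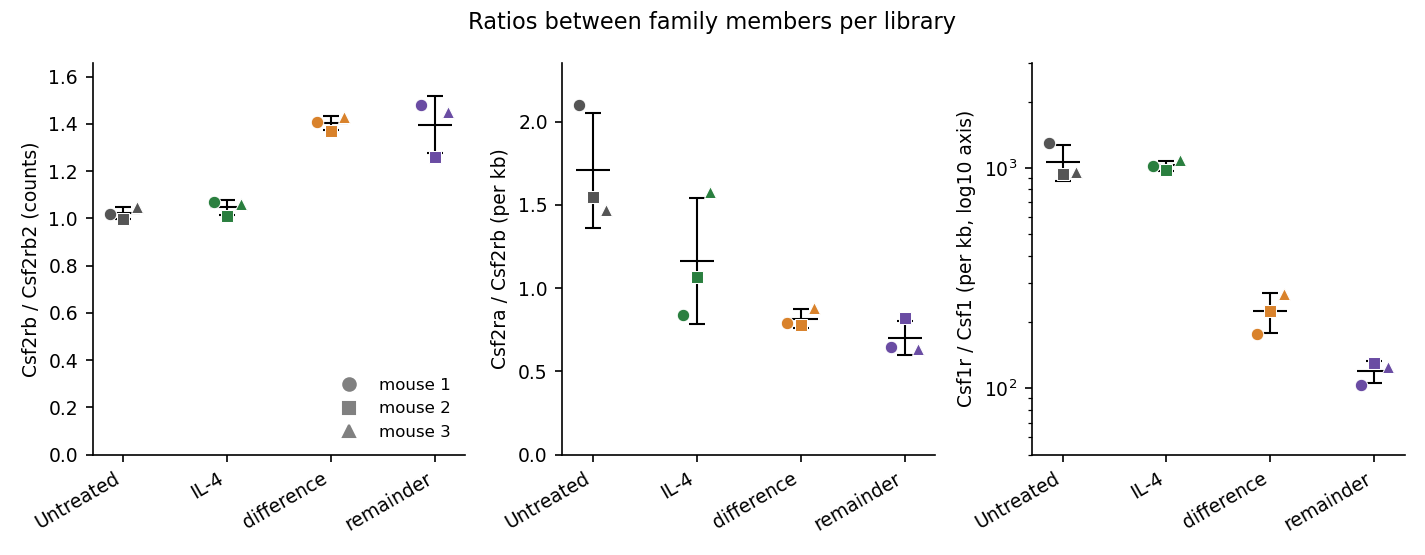
Ratios between family members in each library, with *Csf2rb* over *Csf2rb2* in counts (left), *Csf2ra* over *Csf2rb* per kilobase (middle) and *Csf1r* over *Csf1* per kilobase (right, log10 axis). Bars are means and error bars SD of 3 libraries; the beta chain ratio is 1.02 and 1.04 on average in untreated and IL-4 libraries and 1.41 and 1.4 in the solved ones, and the receptor to ligand ratio falls from a mean of 1069 to 120.

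Of 10 genes of the CSF1 early and cell-cycle response, 0 rose and 7 fell in the difference, against 11.8% of all tested genes called higher and 11.4% called lower. In the remainder 1 rose and 6 fell, against 13.6% higher and 11.7% lower, and the medians of the list were -0.82 and -0.73 beside -0.01 and -0.02 over all tested genes. *Ccnd1*, cyclin D1, fell in the difference (-3.27 on the log2 scale) and in the remainder (-1.71). *Myc* fell in both (-2.36 and -0.87), as did the immediate early factor *Egr1* (-2.40 and -2.18). *Plau*, the urokinase protease, fell as well (-1.42 and -0.85). *Egr2* fell in the difference (-0.87) and was the 1 gene that rose in the remainder (1.66). With IL-4 alone 3 rose, *Egr2* (2.38), *Ccnd1* (0.95) and *Myc* (0.77), and *Egr1* fell (-1.20), against 2.31% of all genes higher and 1.09% lower. The fall of *Ccnd1* and *Myc* in the Wnt3a-treated libraries went with higher *Csf1* and near-level *Csf1r* in the same libraries. A link between these changes was not tested.

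Of 8 tested genes in the GM-CSF and STAT5 response list, 4 rose and 4 fell in the difference, and 4 rose and 3 fell in the remainder, with medians of 0.01 and 0.19, against 23.2% and 25.3% of all genes called in either direction. *Cish* and *Socs2*, feedback inhibitors of STAT5, rose by 1.93 and 1.69 in the difference and by 3.33 and 2.46 in the remainder. Both were counted at low levels. Mean CPM in untreated cells, the difference and the remainder was 1.27, 4.83 and 12.9 for *Cish* and 0.561, 1.84 and 3.19 for *Socs2*. *Ciita*, which drives MHC class II genes, rose by 2.05 and 2.78. *Pparg*, a nuclear receptor that GM-CSF induces in lung macrophages, fell (-1.85 and -0.98), and rose by 0.92 with IL-4. The list thus changed in both directions while *Csf2* itself was at 0.

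Among 23 genes of receptor-proximal signaling, 6 were higher and 3 lower over the Wnt3a-treated libraries, with a median of 0.03 beside -0.02 over all tested genes. Of all tested genes, 16.5% were called higher and 16.1% lower in this comparison. The kinases *Src* (2.52), *Jak2* (1.48) and *Fgr* (0.86) were higher, and *Lyn* (-0.64) was lower. *Jak2*, the kinase bound to the beta chains, went from 22 ± 5.73 CPM (SD, n = 3) in untreated cells to 70 ± 17.9 (difference) and 71.5 ± 22.1 (remainder). Of 11 inhibitors of receptor signaling, 4 rose and 3 fell in the difference and likewise in the remainder (medians -0.11 and 0.09), against 23.2% and 25.3% of all genes. The same 4 rose in both: *Cish*, *Socs1* (1.23 in the difference and 3.15 in the remainder), *Socs2* and *Socs3* (1.88 and 1.61). *Socs1* was also counted at a low level, with means of 1.69 CPM in untreated cells, 3.99 in the difference and 15.2 in the remainder. *Sh2b3*, an adaptor that restrains JAK2, fell in both (-0.53 and -0.46), and the others that fell were called in only one of them: *Cblb* (-0.56) and *Dok2* (-0.44) in the difference, *Ptpn6* (-0.39) and *Inpp5d* (-0.28) in the remainder. These lists share *Cish* and *Socs2* and are not independent of each other.

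**Figure D4:**
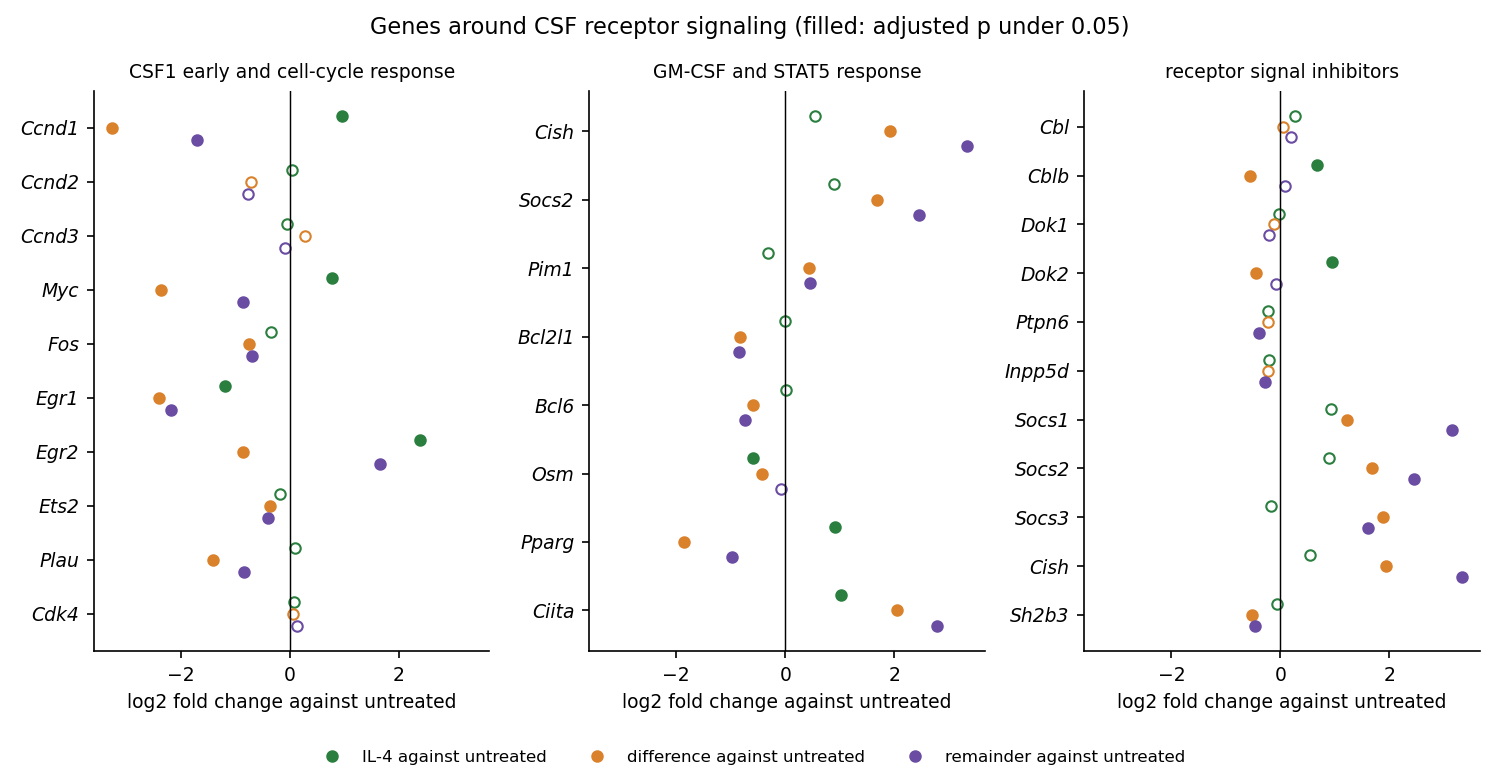
Log2 fold changes against untreated cells for all tested genes of 3 lists around CSF receptor signaling, where filled points have an adjusted p under 0.05. *Ccnd1*, *Myc* and *Egr1* lie left of 0 in both solved libraries, and *Cish*, *Socs1*, *Socs2* and *Ciita* lie right of 0, furthest in the remainder.

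Other lists moved in the same libraries, and their part in the CSF changes was not tested. Of 19 tested NF-kB response genes, 11 were higher and 5 lower over the Wnt3a-treated libraries (median 0.43), against 16.5% and 16.1% of all genes. The list was led by *Ccl5* (7.46), *Nos2* (5.13), *Il1a* (3.87) and *Il12b* (3.42). Mean CPM went from 12.1 to 2139 for *Ccl5*. *Nos2* (0.337 to 5.99 CPM), *Il1a* (0.145 to 2.05) and *Il12b* (0.0651 to 0.781) were counted at low levels. Of 10 Wnt target genes, 2 passed the filter and 1 of them, *Rnf43*, was lower (-0.97, adjusted p = 0.0065), from 0.956 to 0.47 CPM. *Axin2*, the usual Wnt target, was under the filter. It had 0, 0 and 1 counts in untreated cells, 0, 1 and 0 with IL-4, 1, 1 and 5 in the difference, and its highest counts (11, 9 and 13) in the remainder. Of 9 macrophage markers, 6 were higher and 1 lower, beside 2 and 3 of 6 tested stromal, 1 and 2 of 4 dendritic cell and 0 and 0 of 1 lymphocyte markers. Summed dendritic cell markers were 23.7 to 29.1 CPM in untreated cells, 163 to 209 with IL-4, 57 to 63 in the difference and 237 to 264 in the remainder, most of it *Itgax*.

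The genes whose log2 CPM followed each member most closely over the 12 libraries, among the 8511 whose mean reached 8 CPM, are given as a description. The libraries share the 4 groups and their depth. For *Csf1* they were *Pgap2* (r = 0.987), *Tapbp* (0.985) and *Il21r* (0.981). *Csf2rb* was followed by *Manf* (0.990), *Calr* (0.982) and *Slc35b1* (0.981), and *Csf2rb2* by *H2-DMa* (0.972), *6530402F18Rik* (0.967) and *Ctsl* (0.964). For *Csf1r* they were *Myo1f* (0.966), *Pdcd7* (0.950) and *Susd3* (0.943), and for *Csf3r* *Glb1l* (0.945), *Pnpla6* (0.930) and *Slc38a6* (0.906). The values for *Csf2ra* were the lowest of the 6 genes, with *Lrmp* (0.861), *Ufm1* (0.847) and *Mbd4* (0.840). The beta chain pair had 0 genes in common among these.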

How the data were processed

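RNA-seq of BMDMs was analysed in 12 samples. Per the labels and the paper's methods, the authors trimmed single reads (Trimmomatic 0.36), aligned them to mm10 (STAR 2.6.0), counted them on genes (HTSeq 0.11.1) and deposited raw counts. Read length and strand setting are not given in the sources used here. A symbol was paired with 99% of 48526 gene IDs. GENCODE transcripts of mm10 gave positions and the 50-base stretches that genes share.

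The difference and remainder of each mouse were solved from the 2 Wnt3a-containing columns. The 12421 genes that reached 10 counts in 3 or more of the 12 libraries entered 1 fit without a mouse term, by the quasi-likelihood test of edgeR 4.0.16 (R 4.3.3, TMM, Benjamini-Hochberg adjusted p under 0.05). Correlations used log2 CPM with a prior count of 2. Total counts of 13342492 to 17453377 per library limit what can be seen of the lowest genes. With 3 samples per group, p-values measure the spread between libraries within groups, where mouse and culture cannot be told apart. The test was run on simulated data first.

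The members and lists were chosen with earlier results of these data known. All members are named, and from each list of genes up to 4 with the largest change among those called in the comparison described and changed alike in 3 mice; *Axin2*, *Sh2b3*, *Cblb*, *Dok2*, *Ptpn6* and *Inpp5d* were named after their values had been seen.

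The labels pair the samples, as each mouse is represented in every group. Deviations from group means of same-mouse libraries correlated between -0.42 and 0.45 over 18 pairs, 6 of them over 0.1. Those of different mice correlated between -0.41 and 0.38 over 36 pairs, 9 of them over 0.1. Alternatives were DESeq2 1.42.0, its size factors, total counts, other filters, only the groups compared, the mouse as replicate block, stricter thresholds, the deposited columns, the beta chain rows summed, and each mouse or library left out.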

Additional observations from a re-analysis of the deposited data

Results flagged for a closer look

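An IL-4 effect that differs with and without Wnt3a was found for 3 members, of which *Csf2rb* and *Csf2rb2* are near-copies. It was found in 1 of the 2 readings of the solved libraries, where the remainder is taken as Wnt3a alone. The interaction was -0.99 for *Csf1* (adjusted p = 0.024), -1.0 for *Csf2rb* (adjusted p = 4.6e-04) and -0.97 for *Csf2rb2* (adjusted p = 3.7e-04), all by the interaction term of the edgeR fit. In this reading *Csf2rb* was 0.66 and *Csf2rb2* 0.62 higher with IL-4 in the absence of Wnt3a, and each was 0.34 higher without IL-4 in its presence, which did not pass the test (adjusted p = 0.074 and 0.056). In the other reading the same genes gave 0.72, -0.32 and -0.28, and none passed the test. The *Csf1* value was lost without mouse 1 (-0.72, adjusted p = 0.12), without mouse 3 (-1.03, adjusted p = 0.2) and with the deposited columns (-0.27, adjusted p = 0.75). It was also lost without untreated mouse 1 (-0.83, adjusted p = 0.054), IL-4 mouse 1 (-0.91, adjusted p = 0.073), IL-4 mouse 2 (-0.96, adjusted p = 0.069), the difference of mouse 3 (-0.88, adjusted p = 0.058) or the remainder of mouse 1 (-0.87, adjusted p = 0.054). Of genes that IL-4 alone raised, *Egr2* (2.38 with IL-4), *Mrc1* (2.14) and *Itgax* (2.94) were picked after their values had been seen. They were also higher in the remainder than in the difference (2.54, 2.33 and 2.06). *Socs1*, picked in the same way, was not called with IL-4 alone (0.93, adjusted p = 0.14 by edgeR). Against untreated cells *Socs1* was 3.15 in the remainder and 1.23 in the difference. In the difference, *Egr2* (-0.87) and *Mrc1* (-0.83) were below untreated cells, while *Itgax* was above them. With the remainder as Wnt3a alone, IL-4 would raise *Egr2*, *Mrc1* and *Itgax* without Wnt3a but lower them with Wnt3a. By qPCR, the paper found *Socs1* unaltered by Wnt3a alone, and higher with Wnt3a and IL-4 than with IL-4 alone. These genes were picked after their values had been seen, and which reading holds was not tested. Samples are grouped here by their labels alone, so neither reading was chosen from these values. No group had more than 3 samples, so single libraries were not examined as outliers.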

How the results depend on the processing

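The number of members called in the difference against untreated was 3, and 3 to 3 with a mouse or library left out. In the remainder it was 4 (3 to 5). With IL-4 it was 2 (1 to 2), 0 where a log2 change of 1 was also required, and 1 with the beta chain rows summed, by construction. Remainder against difference had 1 (0 to 3), with 3 under DESeq2, 3 with all genes of at least 1 count, 2 with the mouse as replicate block, 0 at a log2 fold change of at least 1 and 0 with the deposited columns, which share reads. The Wnt3a average had 5 (3 to 5), and 1 at a log2 fold change of at least 1, which was *Csf1*. The interaction with the difference as Wnt3a alone had 0 (0 to 0), 2 with all genes of at least 1 count and 2 with the deposited columns. With the remainder as Wnt3a alone it had 3 (2 to 3) and 0 at a log2 fold change of at least 1. The cause of these changes was otherwise not tested. The replicate block, which follows the pairing of samples by mouse, changed the calls of *Csf1r* over the Wnt3a average (-0.19, adjusted p = 0.074) and of *Csf2rb2* between remainder and difference (0.35, adjusted p = 0.044) and no other member's call.

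Of the log2 changes of single members under the alternatives, 982 kept their direction and their side of the threshold, 45 lost a call, 18 gained one and 22 changed sign, of which 0 were called in either fit. With total counts alone *Csf2ra* was -0.03 in the difference and *Csf1r* 0.01 in the second interaction, and with the deposited columns *Csf2ra* was -0.05 in the first interaction and *Csf3r* 0.13 in the second. The others came from left-out mice or libraries, where *Csf1* ranged from -0.10 to 0.26 with IL-4, *Csf1r* from -0.00 to 0.15 with IL-4, from -0.11 to 0.05 between remainder and difference and from -0.20 to 0.11 in the second interaction, and *Csf2ra* from -0.21 to 0.39 with IL-4, from -0.06 to 0.23 in the difference, from -0.26 to 0.36 in the first interaction and from -0.51 to 0.06 in the second.

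Over all genes, left-out mice or libraries gave 77 to 532 calls with IL-4 (422 in the fit reported), 1220 to 3188 in the difference (2884), 1375 to 3807 in the remainder (3137), 97 to 1188 between them (652), 2081 to 4310 over the Wnt3a average (4049), and 0 to 43 (13) and 265 to 1459 (910) for the interactions. With IL-4, the deposited columns gave 708 calls, all genes of at least 1 count 812, an adjusted p under 0.01 227 and a log2 fold change of at least 1 133. In the same order of the last 2 settings the difference had 1687 and 842, and the remainder 1960 and 917. Between remainder and difference, all genes gave 1454, only the groups compared 422, the 2 thresholds 279 and 184, and the columns 0. The Wnt3a average had 784 at the fold threshold. The first interaction had 165 under DESeq2, 575 with all genes, 0 at 0.01 and 142 with the columns, and the second had 1505 with all genes, 472 and 423 at the 2 thresholds and 311 with the columns. Scaling by total counts alone shifted the median of all genes to -0.10 (difference) and -0.13 (remainder), and moved the share of calls that were higher from 50.7% to 33.7%, from 53.8% to 35.6%, from 50.5% to 36.3% over the Wnt3a average and from 68% to 53.8% with IL-4. At these depths *Csf2* and *Csf3* could not be tested.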

Other observations

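Genes for the shedding of CSF1R and myeloid transcription factors were counted in the same fit. Of 4 genes for shedding of CSF1R, 1 was higher and 2 lower over the Wnt3a-treated libraries, where 16.5% of all tested genes were higher and 16.1% lower. In the difference against untreated 2 were higher, *Adam17* (0.38, adjusted p = 0.028) and *Rhbdf2*, and 1 lower. *Rhbdf1* and *Rhbdf2* encode inactive rhomboids that carry the sheddase ADAM17 to the cell surface. *Rhbdf1* was lower (5.26 to 1.67 CPM, log2 -1.66, adjusted p = 3.0e-06 by edgeR) and *Rhbdf2* higher (109.7 to 149.5 CPM, log2 0.45, adjusted p = 1.4e-04). *Adam10* was lower by a smaller amount (-0.34, adjusted p = 0.044).

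Of 11 tested myeloid transcription factors, 1 was higher and 3 lower in the same comparison, against the same 16.5% and 16.1% of all genes. *Cebpa*, a factor of myeloid commitment, was lower (211 to 103 CPM, log2 -1.04, adjusted p = 5.1e-07), as were *Maf* (-0.70, adjusted p = 5.3e-05) and *Spi1*, which encodes PU.1 (-0.24, adjusted p = 0.021). *Cebpb* was higher (0.26, adjusted p = 0.04).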
